A study of Homo sapiens with 8 samples.

Results

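The mitochondrial genome genes are the 37 genes that the deposited tables place on chromosome MT, of 58735 genes in all. They comprise 13 protein-coding genes, 2 rRNA genes and 22 tRNA genes, and membership rested on the chromosome alone and on no measured value. Bulk RNA-seq of U2OS, an established human osteosarcoma cell line, covered 4 groups with 2 libraries each. The shControl cells, labelled WT and here called control cells, and the shWSB2 cells, in which an shRNA targets WSB2 and which are here called KD cells, were each left unstimulated or given TNF-α for 5 h. TNF-α is an inflammatory cytokine that signals through NF-κB. WSB2 is a substrate receptor of an E3 ubiquitin ligase. Every group carried an shRNA, so the control is not the parental line, and whether the KD cells were a clone or a pool, the WSB2 hairpin in these libraries and the dose of TNF-α are not given in the sources used here. The labels number the libraries of a group as replicates without saying whether they came from separate cultures, so the p-values measure the spread between these libraries, which may be technical.

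The mitochondrial genome is a small circle present in many copies per cell. It encodes core membrane subunits of respiratory complexes I, III and IV and of the ATP synthase (complex V), while the remaining subunits come from nuclear genes. Both strands are transcribed as long precursors, and the tRNAs that punctuate them are cut out, which frees the mRNAs and rRNAs between them. The mRNAs then receive a poly(A) tail, and some overlapping neighbours stay together on a single mRNA.

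In the annotation, 12 protein-coding genes, both rRNA genes and 14 tRNA genes lie on the plus strand, and MT-ND6 and 8 tRNA genes lie on the minus strand. The overlaps between coding genes are shown first, since MT-ATP8, the shorter partner of the largest overlap, had higher values after TNF-α where most other coding genes had lower ones. All sequences below come from the transcripts of GENCODE release 29 on GRCh38 and run 5′ to 3′. MT-ATP8 and MT-ATP6 share 46 bases, which is 22.2% of MT-ATP8, MT-ND4L and MT-ND4 share 7 bases, and MT-ATP6 and MT-CO3 share 1 base. Capitals mark the bases that belong to both genes. The lower-case flanks of 9 bases give the context of the shorter overlaps, and the overlap of 46 bases is printed without flanks.
MT-ATP8 and MT-ATP6, MT:8527-8572, plus strand: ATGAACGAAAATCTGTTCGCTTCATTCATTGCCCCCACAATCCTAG
MT-ND4L and MT-ND4, MT:10760-10766, plus strand: cctactccaATGCTAAaactaatcg
MT-ATP6 and MT-CO3, position 9207, plus strand: caacacataAtgacccacc

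The ends of the coding genes are shown because some mRNAs have no complete stop codon in the genome. In 6 of the 13 coding genes the annotated gene ends on an incomplete stop codon, T in 5 genes and TA in MT-ND1, which the poly(A) tail is known to complete. The other 7 end on a full stop codon of the mitochondrial code. The last 24 bases of the genes with incomplete stops follow, with the bases past the last whole codon in capitals.
MT-ND1: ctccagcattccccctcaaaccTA
MT-ND2: ccccttttatactaataatcttaT
MT-CO3: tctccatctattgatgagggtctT
MT-ND3: aaaaaggattagactgaaccgaaT
MT-ND4: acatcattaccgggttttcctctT
MT-CYB: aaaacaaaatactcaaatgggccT

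The tRNA genes span 59 to 75 bases. MT-TN and MT-TC, the tRNAs for asparagine and cysteine, are shown because they held most tRNA reads and had lower values in unstimulated KD cells, and MT-TL1, a leucine tRNA, because it was called in the direction of most coding genes. The minus-strand genes are printed as transcribed, and no bases are singled out by capitals.
MT-TN, MT:5657-5729, minus strand: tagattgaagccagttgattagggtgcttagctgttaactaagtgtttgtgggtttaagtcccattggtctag
MT-TC, MT:5761-5826, minus strand: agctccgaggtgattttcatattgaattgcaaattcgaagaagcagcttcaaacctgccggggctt
MT-TL1, MT:3230-3304, plus strand: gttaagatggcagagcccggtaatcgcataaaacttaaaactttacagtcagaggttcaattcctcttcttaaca

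The libraries held between 15601098 and 18677023 reads, recovered from the deposited FPKM values (fragments per kilobase of gene, scaled to sequencing depth). WSB2 was at 27.7 and 28.0 FPKM in unstimulated control cells against 8.38 and 8.52 FPKM in unstimulated KD cells, a log2 difference of -1.61 (adjusted p = 0.000119), and the difference after TNF-α was -1.37 (adjusted p = 0.00113). Of the mesenchymal and osteoblast markers, VIM, SPARC and COL1A1 were at 146 FPKM or above in every library and COL1A2, SP7 and BGLAP at 0.448 FPKM or below. RUNX2 lay between 1.29 and 2.94 FPKM and ALPL between 1.22 and 5.41 FPKM. The epithelial, leukocyte and endothelial markers did not exceed 0.482 FPKM. The 2 unstimulated KD libraries stood apart from the other 6. Their deposited size factor was 1.21 times the read total against 0.925 to 1.03 times elsewhere, the GC content of their reads weighted by gene was 49.4% and 49.9% against 52.5% to 53.2%, and 26225 and 26397 genes had a read against 22072 to 22957. The comparisons of unstimulated KD cells rest on these libraries, and the part of these properties in the results was not tested beyond the alternative settings given below. Differences are on the log2(FPKM + 1) scale with the standard error (SE) and an adjusted p from limma, and "called" means an adjusted p under 0.05 among 16528 genes tested.

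Mitochondrial transcripts made up 2.02% and 2.03% of the reads in unstimulated control cells and 4.10% and 4.42% in unstimulated KD cells. With TNF-α the share was 1.25% and 1.11% for control cells against 1.55% in each KD library. The highest shares were therefore in unstimulated KD cells and the lowest in TNF-α-treated control cells, and no pair of groups overlapped. The group means differed 2.10-fold between KD and control cells without TNF-α and 1.31-fold with TNF-α, and TNF-α-treated cells had 0.584 times the share of unstimulated control cells and 0.363 times that of unstimulated KD cells. With 2 libraries against 2 an exact two-sided permutation test cannot go below p = 0.333, so the shares carry no test. Their 95% Wilson intervals, which cover counting error only, ran from 1.11% to 1.12% in the lowest library and from 4.41% to 4.43% in the highest. In bulk RNA a change in the mix of cells and a change in RNA per cell cannot be told apart.

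**Figure D1:**
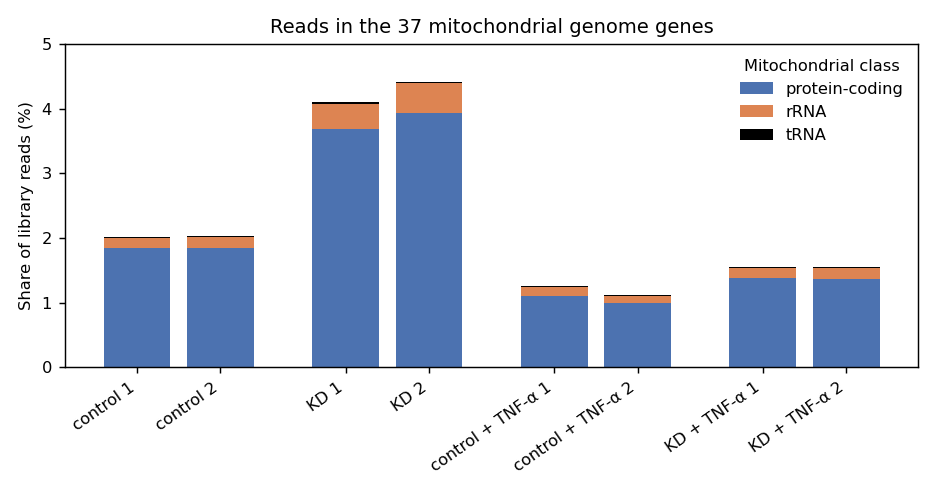
Share of all reads of a library, in percent, that fell in the 37 mitochondrial genome genes, as stacked bars for protein-coding, rRNA and tRNA genes, with 1 bar per library. The unstimulated KD bars reach 4.10% and 4.42%, and the other bars lie between 1.11% and 2.03%.

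Protein-coding genes took 89.5% of the mitochondrial reads over the 8 libraries, rRNA genes 9.68% and tRNA genes 0.855%. The paper does not say how RNA was selected for the libraries. Whether reads in tRNA genes came from tRNAs already cut out or from precursors was not tested. The share of rRNA reads rose most in unstimulated KD cells, at 2.62 times the control mean against 2.07 times for coding genes and 1.14 times for tRNA genes. After TNF-α the KD to control ratios were 1.28, 1.31 and 1.12 in the same order.

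Per length, the subunits of complex IV were the most abundant members. In unstimulated control cells MT-CO2 averaged 3920.0 ± 617 FPKM, MT-CO3 3664 ± 498 FPKM and MT-CO1 3498 ± 11.7 FPKM (SD, n = 2), and the libraries of these neighbours overlapped, so their order was not resolved. MT-ATP6 followed at 1988 ± 72.9 FPKM, MT-ND3 at 1603 ± 281 FPKM and MT-ND4 at 1179 ± 5.72 FPKM (SD, n = 2). The lowest coding genes were MT-ND5 at 371 ± 53.2 FPKM, MT-ND6 at 321 ± 54.4 FPKM and MT-ATP8 at 15.01 ± 1.1 FPKM (SD, n = 2), of which MT-ND5 and MT-ND6 overlapped. MT-CO1, MT-CO2 and MT-CO3 filled the top 3 places in all 4 groups, and MT-ATP8 was last in all 4. MT-ND3 held the fifth place in unstimulated control cells and the tenth in unstimulated KD cells. MT-ATP8 rested on 49 to 221 reads per library against 11462 to 51968 for MT-ATP6, its partner on the same mRNA. How reads spanning more than 1 gene were counted is not given in the sources used here, and its part in the low MT-ATP8 value was not tested.

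**Figure D2:**
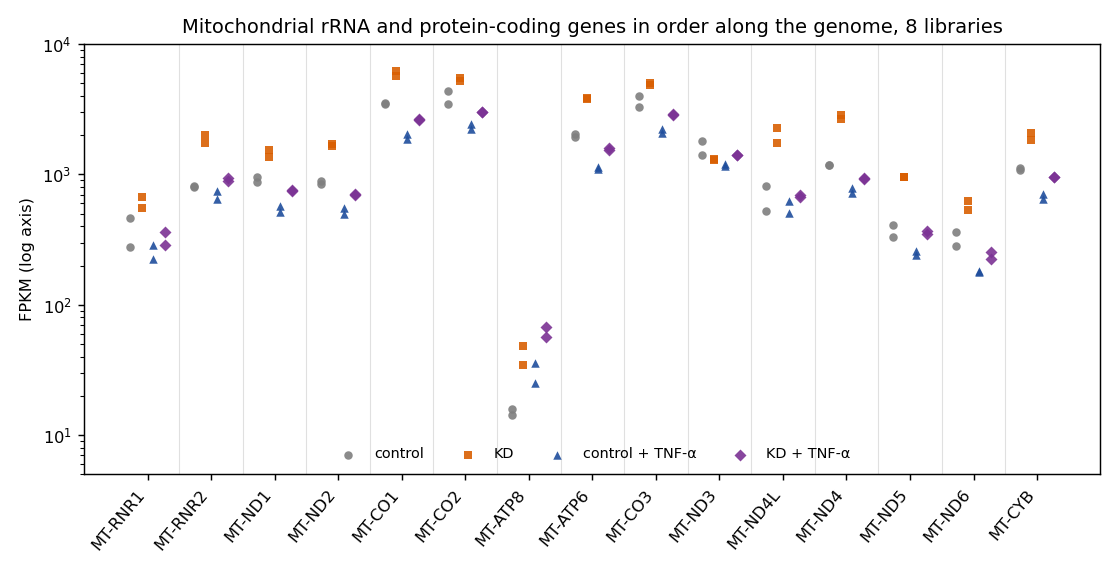
FPKM on a log axis for the rRNA and protein-coding genes in order along the genome, with 1 point per library and a symbol per group. In most genes the unstimulated KD libraries are highest and the TNF-α-treated control libraries lowest, while MT-ATP8 is lowest in unstimulated control cells (14.2 and 15.8 FPKM) and MT-ND3 has its highest group mean there (1404 and 1802 FPKM), overlapping the TNF-α-treated KD libraries (1403 and 1408 FPKM).

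Without TNF-α, KD cells had higher levels of most mitochondrial transcripts than control cells. Of the 33 members tested, 20 were called higher and 1, MT-TC, lower. Over all genes 29.8% were called higher and 30.2% lower, so the total share of members called was close to the background and their direction was not. Scaled to the total of all reads, the median of all genes moved to 0.13, and 65.3% of all calls were higher against 49.7% with the deposited scaling. The call rates were 10 higher of 13 coding genes, 2 higher of 2 rRNA genes, and 8 higher and 1 lower of 18 tRNA genes. The median log2 difference of the coding genes was 0.86, from -0.30 to 1.60, against -0.001 for all genes tested. The members share precursor transcripts and are not independent of each other.

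Among the complex I subunits, MT-ND5 was at 333 and 408 FPKM in control cells and 962 and 957 FPKM in KD cells, a log2 difference of 1.38 (SE 0.13, adjusted p = 0.000183). MT-ND4 was at 1183 and 1175 FPKM against 2668 and 2830.3 FPKM, a difference of 1.22 (SE 0.15, adjusted p = 0.000385). MT-ND4L was at 522 and 819 FPKM against 1730.3 and 2265 FPKM, the largest difference of a coding gene, 1.60 (SE 0.24, adjusted p = 0.000951). All 3 genes lie next to each other on the plus strand apart from intervening tRNAs, and in each the KD libraries lay far above the control libraries. MT-ND2 rose from 885 and 851 FPKM to 1642 and 1719 FPKM, a difference of 0.95 (SE 0.13, adjusted p = 0.000636). MT-ND1 rose from 959 and 874 FPKM to 1371 and 1528 FPKM, a difference of 0.66 (SE 0.14, adjusted p = 0.00503). MT-ND6, the coding gene of the minus strand, rose from 359 and 282 FPKM to 628 and 534 FPKM, a difference of 0.86 (SE 0.15, adjusted p = 0.00157).

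MT-ND3 was the complex I subunit that went its own way. It was at 1802 and 1404 FPKM in control cells and 1308 and 1279.9 FPKM in KD cells, a difference of -0.30 (SE 0.18, adjusted p = 0.179) that was not called although both KD libraries lay below both control libraries. Its direction and call depended on the setting. Scaled to the total of reads outside the mitochondrial genes, the difference was 0.02, while with GC content and length corrected for it was -0.87 (adjusted p = 0.00161) and called, as it was with voom at -0.30 and without control replicate 2 at -0.48.

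MT-CYB, the mitochondrially encoded subunit of complex III, rose from 1114 and 1084 FPKM to 1843 and 2073 FPKM, a difference of 0.83 (SE 0.15, adjusted p = 0.00192). Of the complex IV subunits, MT-CO1 rose from 3506 and 3490.0 FPKM to 5643 and 6235 FPKM, a difference of 0.76 (SE 0.21, adjusted p = 0.0155). MT-CO2 was at 4356 and 3484 FPKM against 5173 and 5532 FPKM, a difference of 0.46 (SE 0.23, adjusted p = 0.124). The KD libraries lay above the control libraries for all 3 complex IV genes, and MT-CO2 and MT-CO3 were not called. MT-CO3 was at 4016 and 3312 FPKM against 4818 and 5011 FPKM, a difference of 0.43 (SE 0.22, adjusted p = 0.128). Both were called higher when scaled to the total of all reads, with voom and with GC content and length corrected for. The call of MT-CO1 was lost without KD replicate 1 or 2 of either condition, with differences between 0.69 and 0.83 and adjusted p up to 0.112 over the fits that left out 1 library.

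Both ATP synthase subunits were called higher. MT-ATP6 rose from 2039 and 1936 FPKM to 3850.1 and 3771 FPKM, a difference of 0.94 (SE 0.17, adjusted p = 0.00219). MT-ATP8 rose from 15.8 and 14.2 FPKM to 48.3 and 34.5 FPKM, a difference of 1.39 (SE 0.20, adjusted p = 0.000698). Under the GC content and length correction the MT-ATP8 difference was 0.69 and that of MT-ND6 0.52, and both were still called.

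Both rRNAs were called higher. MT-RNR2, the rRNA of the large ribosomal subunit, rose from 807 and 820.1 FPKM to 1755 and 1988 FPKM, a difference of 1.198 (SE 0.15, adjusted p = 0.000442). MT-RNR1, the rRNA of the small subunit, rose from 276 and 465 FPKM to 556 and 666 FPKM, a difference of 0.76 (SE 0.26, adjusted p = 0.0337). The control libraries of MT-RNR1 were far apart, and its call was lost without control replicate 1 and without either unstimulated KD library, with differences from 0.39 to 1.14 over the fits that left out 1 library, and also with GC content and length corrected for (0.71, adjusted p = 0.055).

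Of the 18 tRNA genes tested, 16 had a higher value in KD cells and 2, MT-TN and MT-TC, a lower one. MT-TN was not called, at 1329 and 1003 FPKM in control cells and 646 and 881 FPKM in KD cells, a difference of -0.61 (SE 0.24, adjusted p = 0.0554), and with GC content and length corrected for it was called lower at -1.46 (adjusted p = 0.0023). MT-TC was at 999.6 and 861 FPKM against 699 and 621 FPKM, a difference of -0.49 (SE 0.16, adjusted p = 0.026). These 2 genes held 66.3% of all tRNA reads and lie beside each other on the minus strand, and in both the KD libraries lay below the control libraries. MT-TC lost its call without either unstimulated or either TNF-α-treated KD library, with differences between -0.60 and -0.39 over the fits without 1 library, and when scaled to the total of all reads, and it was at -1.04 with GC content and length corrected for. MT-TP, the proline tRNA, was at 383 and 375 FPKM against 376 and 458 FPKM, a difference of 0.13 (SE 0.12, adjusted p = 0.383), and its groups overlapped. With GC content and length corrected for, this difference was -0.97, so its direction depended on that correction.

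The 8 tRNAs called higher lay on both strands, and of all tRNA genes 14 lie on the plus and 8 on the minus strand. MT-TL1 rose from 96.9 and 87.0 FPKM to 199 and 217 FPKM, a difference of 1.17 (SE 0.10, adjusted p = 0.000155). MT-TH (histidine) rose from 79.3 and 45.2 FPKM to 168 and 113 FPKM, MT-TG (glycine) from 55.9 and 61.2 FPKM to 125 and 147 FPKM, and MT-TR (arginine) from 57.5 and 53.3 FPKM to 100.1 and 122 FPKM. Their differences were 1.19, 1.201 and 0.98 with adjusted p of 0.0131, 0.0052 and 0.00131. After the GC content and length correction none of these 4 tRNAs was called, and the differences were 0.20 for MT-TL1, 0.13 for MT-TH, 0.17 for MT-TG and 0.03 for MT-TR, with adjusted p of 0.26, 0.807, 0.631 and 0.915. The correction shifts genes of similar GC content and length together. It lowered the difference of every tRNA named in this comparison, so the lost calls are not separate results for each gene. MT-TH also lost its call without control replicate 2 or KD replicate 1. MT-TM (methionine), MT-TV (valine), MT-TS1 (serine) and MT-TQ (glutamine) were also called higher, by 1.11, 1.95, 2.12 and 1.90, but each had between 31 and 104 reads over all 8 libraries. MT-TS1 lost its call without control replicate 1 or KD replicate 2, with differences from 1.42 to 2.82, and MT-TV without either control library or KD replicate 2, and with GC content and length corrected for (1.15, adjusted p = 0.141). MT-TS1 and MT-TQ lie on the minus strand. The other tRNA genes tested were not called, and MT-TF, MT-TW, MT-TA and MT-TK, with 20 to 52 reads each, did not pass the filter on low reads.

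**Figure D3:**
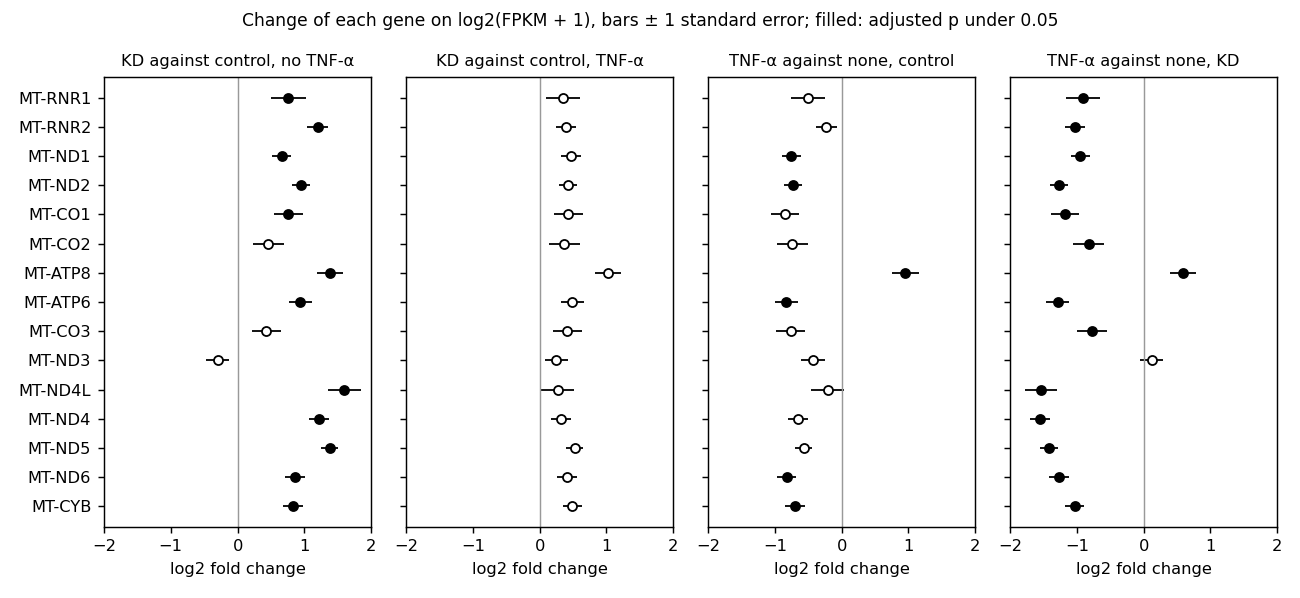
Log2 differences on the log2(FPKM + 1) scale for the rRNA and coding genes in 4 comparisons, with bars of 1 standard error and filled points for an adjusted p under 0.05. Without TNF-α most KD differences lie between 0.43 and 1.60, with TNF-α they lie between 0.25 and 1.02 with no filled point, and MT-ATP8 is the gene that lies right of 0 in all 4 panels with a call in 3 of them.

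After TNF-α no member was called between KD and control cells. Over all genes 0.0605% were called higher and 0.0545% lower. At an unadjusted p under 0.05, a looser threshold, limma placed 16 of the 33 members, 7 of them coding genes. The share of all genes past that looser threshold was not counted. The unadjusted counts, here and for the nuclear lists below, therefore have no background beside them. A voom fit of the recovered reads called 1 member higher, where 34 of the 16528 genes were called higher and 18 lower. The KD libraries did not overlap the control libraries and were higher in 13 of 13 coding genes, against 23.9% of all genes, and the median difference of the coding genes was 0.42, from 0.25 to 1.02. The order of the groups was thus the same in every coding gene, and no single difference passed the adjusted threshold.

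The largest of these differences was that of MT-ATP8, at 25.2 and 35.7 FPKM in control cells and 57.0 and 67.5 FPKM in KD cells, or 1.02 (SE 0.20, adjusted p = 0.146). MT-ND5 was at 259 and 239.6 FPKM against 352 and 365 FPKM, a difference of 0.52 (SE 0.13, adjusted p = 0.257). MT-CYB was at 709 and 651 FPKM against 954 and 955 FPKM, a difference of 0.49 (SE 0.15, adjusted p = 0.379). In these genes the KD libraries were higher by more than the distance between the libraries of a group. MT-ND5 was called when either unstimulated control library was left out, at a difference of 0.52, and in no other fit that left out 1 library.

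The remaining coding genes followed the same order of groups. MT-ATP6 was at 1142 and 1091 FPKM against 1593 and 1535 FPKM, MT-ND1 at 575 and 511 FPKM against 758 and 742 FPKM, and MT-ND2 at 548 and 497 FPKM against 706 and 695 FPKM. MT-CO1 was at 2045 and 1856 FPKM against 2668 and 2590.4 FPKM, MT-CO2 at 2454 and 2230.1 FPKM against 3023 and 3021 FPKM, and MT-CO3 at 2229 and 2076 FPKM against 2912 and 2829 FPKM. Their differences lay between 0.37 and 0.49. MT-ND6 was at 180.0 and 179 FPKM against 226 and 254 FPKM, MT-ND4 at 783 and 716 FPKM against 941 and 929.5 FPKM, and MT-ND4L at 629.7 and 507 FPKM against 698 and 665 FPKM. MT-ND3 was at 1208 and 1153 FPKM against 1403 and 1408 FPKM, the smallest difference of a coding gene at 0.25. The gap between KD and control was thus narrow in MT-ND4, MT-ND4L and MT-ND3, of which the former pair had shown the wide gaps without TNF-α.

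For the rRNAs the values were 286 and 223 FPKM against 288 and 362 FPKM in MT-RNR1 and 749 and 644 FPKM against 895 and 930.1 FPKM in MT-RNR2, with differences of 0.35 and 0.39. MT-TN was at 1138 and 812 FPKM against 991 and 979 FPKM and MT-TC at 850.3 and 741 FPKM against 891 and 982 FPKM, with differences of 0.04 and 0.24. The low values of these tRNAs seen in unstimulated KD cells were not seen here. MT-TP was at 277 and 266 FPKM against 328 and 353 FPKM and MT-TL1 at 53.6 and 46.7 FPKM against 62.5 and 60.7 FPKM, with differences of 0.32 and 0.29.

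In control cells most members called after TNF-α were lower, and MT-ATP8 was higher. Of the 33 members, 7 were called lower and 1 higher, against 1.14% and 3.1% of all genes. In the coding genes, both TNF-α libraries lay below both unstimulated libraries in 11 of 13, against 19.9% of all genes, and the median difference was -0.73, against 0.01 for all genes. Of all calls 73.0% were higher, and 60.3% when scaled to the total of all reads. The TNF-α comparisons share the unstimulated libraries with the comparison of KD and control cells above, so their values are set side by side and not counted as separate support.

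The coding genes called lower in control cells were MT-ND6 (-0.82, SE 0.15, adjusted p = 0.0235), MT-ND2 (-0.73, SE 0.13, adjusted p = 0.0258), MT-ND1 (-0.76, SE 0.14, adjusted p = 0.0304), MT-ATP6 (-0.83, SE 0.17, adjusted p = 0.0406) and MT-CYB (-0.69, SE 0.15, adjusted p = 0.0449). MT-CO1, MT-CO2 and MT-CO3 had differences of -0.84, -0.74 and -0.76, of the same size, with adjusted p of 0.0788, 0.15 and 0.119. MT-ND4L was nearly level at -0.21 (SE 0.24, adjusted p = 0.725), and its libraries overlapped. MT-ATP8 rose, by 0.96 (SE 0.20, adjusted p = 0.0414). Among the tRNAs MT-TL1 fell by 0.86 (SE 0.10, adjusted p = 0.00316) on the log2 scale, and MT-TY, the tyrosine tRNA, was at 104 and 181 FPKM before and 68.6 and 58.9 FPKM after TNF-α, a difference of -1.10 (SE 0.23, adjusted p = 0.0427).

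These calls depended on single libraries. Only MT-TL1 of the 8 was called in each fit that left out 1 library, the number called lower ran from 1, without TNF-α-treated control replicate 1 or either TNF-α-treated KD library, to 14, without unstimulated control replicate 2, and MT-ATP8 was called in 3 of the 8 such fits. The differences of MT-ATP8 in them lay between 0.71 and 1.199.

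In KD cells most members were called lower after TNF-α. Of 33 members 23 were called lower and 2, MT-ATP8 and MT-TC, higher, against 31.4% and 31.1% of all genes. The median difference of the coding genes was -1.17, against -0.01 for all genes. Of all calls 49.8% were higher, and 31.4% when scaled to the total of all reads, where the median of all genes was -0.19. MT-ND4, MT-ND4L and MT-ND5 fell by 1.55, 1.54 and 1.42 on the log2 scale (SE 0.15, 0.24 and 0.13, adjusted p = 0.000116, 0.00101 and 9.8e-05). MT-ATP6 fell by 1.28, MT-ND6 by 1.27, MT-ND2 by 1.26, MT-CO1 by 1.17, MT-CYB by 1.03, MT-ND1 by 0.95, MT-CO2 by 0.82 and MT-CO3 by 0.78. MT-RNR2 fell by 1.03 and MT-RNR1 by 0.91. The unstimulated KD libraries stand on one side of this comparison and on the other side of the comparison with control cells, so the sizes of both sets of differences are tied.

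MT-ATP8 rose in KD cells too, by 0.59 (SE 0.20, adjusted p = 0.0315), and MT-TC by 0.50 (SE 0.16, adjusted p = 0.0229). Scaled to the total of all reads, MT-ATP8 differed by 0.22 and both lost their calls. MT-TC also lost its call without any 1 of the KD libraries of either condition, at 0.42 to 0.59. The GC content and length correction left both called, at 1.38 for MT-ATP8 and 1.13 for MT-TC. Without KD replicate 2 of either condition MT-ATP8 was not called, with differences from 0.36 to 0.83 over the fits without 1 library. MT-ND3 had a difference of 0.12 (SE 0.18, adjusted p = 0.576), and with GC content and length corrected for it was called higher at 0.78. The tRNAs called lower were MT-TL1 (-1.74), MT-TM (-1.57), MT-TG (-1.62), MT-TH (-1.24), MT-TY (-0.96), MT-TR (-0.63), MT-TI (-2.16), MT-TV (-2.54), MT-TD (-1.30) and MT-TQ (-1.26). With GC content and length corrected for, MT-TR was called higher at 0.52, and the calls of MT-TG (-0.43), MT-TH (-0.08), MT-TY (-0.11), MT-TD (-0.15), MT-TI (-0.95) and MT-TQ (-0.87) were lost, so that MT-TL1 (-0.68), MT-TM (-0.96) and MT-TV (-1.67) stayed called lower. The correction moved all these tRNAs upward together. Single libraries of the comparison also ended the calls of MT-TD (any of the 4), MT-TI (either unstimulated library or TNF-α replicate 2), MT-TH (replicate 1 of either condition), MT-TR (unstimulated replicate 2 or TNF-α replicate 1) and MT-TV (unstimulated replicate 2). MT-TI, the isoleucine tRNA, and MT-TD, the aspartate tRNA, had 192 and 116 reads in all.

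The interaction, the KD difference with TNF-α minus that without, was tested directly. It was called for 7 of 33 members, 6 negative and 1 positive, against 22.3% and 23.8% of all genes, so members were not called more often than other genes. Of all interaction calls 51.7% were positive, and 32.9% when scaled to the total of all reads. The negative interactions were those of MT-ND4L (-1.33, SE 0.35, adjusted p = 0.0164), MT-ND4 (-0.90, SE 0.21, adjusted p = 0.0106), MT-ND5 (-0.85, SE 0.18, adjusted p = 0.0076), MT-RNR2 (-0.80, SE 0.21, adjusted p = 0.0179), MT-TL1 (-0.87, SE 0.14, adjusted p = 0.00293) and MT-TM (-1.56, SE 0.24, adjusted p = 0.00263). MT-TC had the positive interaction, 0.73 (SE 0.22, adjusted p = 0.0287). With GC content and length corrected for, the interaction of MT-TL1 was 0.023 and not called, and those of MT-ND3 (1.12), MT-TN (1.42), MT-TP (1.21) and MT-TY (0.83) were called. For the other 10 coding genes a difference between the KD effects was not called.

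The composition of the mitochondrial transcripts was examined with the reads of the 13 coding genes as the library size, a scaling chosen after the data were seen. On this scale the overall rise and fall drop out and a difference shows which genes moved more or less than the coding genes together. The adjusted p still covered all 16528 genes. For KD against control cells without TNF-α, 1522 of them were called higher and 8367 lower. TNF-α gave 11678 higher and 92 lower among the controls, where the deposited scaling gave 512 and 189. Among the KD libraries it gave 10042 and 1048. More calls bring an adjusted p nearer to the unadjusted p. The calls for TNF-α among the controls can therefore not be compared between the scalings. Alternatives on this scale were a pseudocount of 0.1, no filter on low reads, a replicate block, voom and leaving out each library. The GC content and length correction was not run on it. Without TNF-α, KD cells had relatively more MT-ND4L (0.83, SE 0.24, adjusted p = 0.0158), MT-ATP8 (0.65, SE 0.23, adjusted p = 0.0381), MT-ND5 (0.61, SE 0.15, adjusted p = 0.00676), MT-ND4 (0.46, SE 0.14, adjusted p = 0.0192) and MT-RNR2 (0.43, SE 0.14, adjusted p = 0.0237). MT-ND3 was relatively lower by 1.06 on the log2 scale (log2 difference -1.06, SE 0.16, adjusted p = 0.000422), and in each library its FPKM stood at 1.88 and 1.61 times that of MT-ND1 in control cells and at 0.954 and 0.838 times in KD cells. The calls of MT-ND3 and MT-ND5 were kept in every alternative run on this scale, and those of MT-ATP8, MT-ND4, MT-ND4L and MT-RNR2 were lost without 1 or more of the libraries. After TNF-α the ratio of MT-ND3 to MT-ND1 was 2.10 and 2.26 in control cells against 1.85 and 1.90 for KD cells, and among the latter TNF-α raised MT-ND3 relative to the coding genes by 1.21 (SE 0.16, adjusted p = 0.000139). With TNF-α, MT-RNR2 was also relatively higher in control cells (0.52, SE 0.14, adjusted p = 0.00953). MT-ND4 was relatively lower in KD cells (-0.46, SE 0.14, adjusted p = 0.0166). Neither of these 2 calls was kept in every alternative run on this scale.

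MT-ATP8 gained on MT-ATP6 under TNF-α in both kinds of cells. The ratio of their FPKM values was 0.00774 and 0.00735 in unstimulated control cells and 0.0221 and 0.0327 after TNF-α, against 0.0125 and 0.00916 in unstimulated KD cells and 0.0358 and 0.0440 after TNF-α. No library without TNF-α reached the lowest library with TNF-α. Relative to the coding genes together, MT-ATP8 rose by 1.68 (SE 0.23, adjusted p = 0.000631) in control cells and by 1.66 (SE 0.23, adjusted p = 0.000222) in KD cells. These rises were called in every alternative run on this scale, with differences from 1.37 to 1.99 in control cells and from 1.38 to 1.93 in KD cells when 1 library was left out. All genes tested had a median of 0.54 and 0.57 on this scale, in the same order. The GC content and length correction was not among the alternatives run on it. The bases shared with MT-ATP6, printed above, belong to both genes, so a read inside them cannot be assigned by sequence.

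The ratio of MT-ND4L to MT-ND4, which overlap by the 7 bases shown above, was 0.441 and 0.697 in unstimulated control cells and lay between 0.649 and 0.804 in the other 6 libraries. The spread within the control pair covered most of the range, and the groups were not resolved. MT-RNR2 to MT-RNR1 likewise ranged from 1.76 to 2.92 within the unstimulated control pair and from 2.57 to 3.15 elsewhere.

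**Figure D4:**
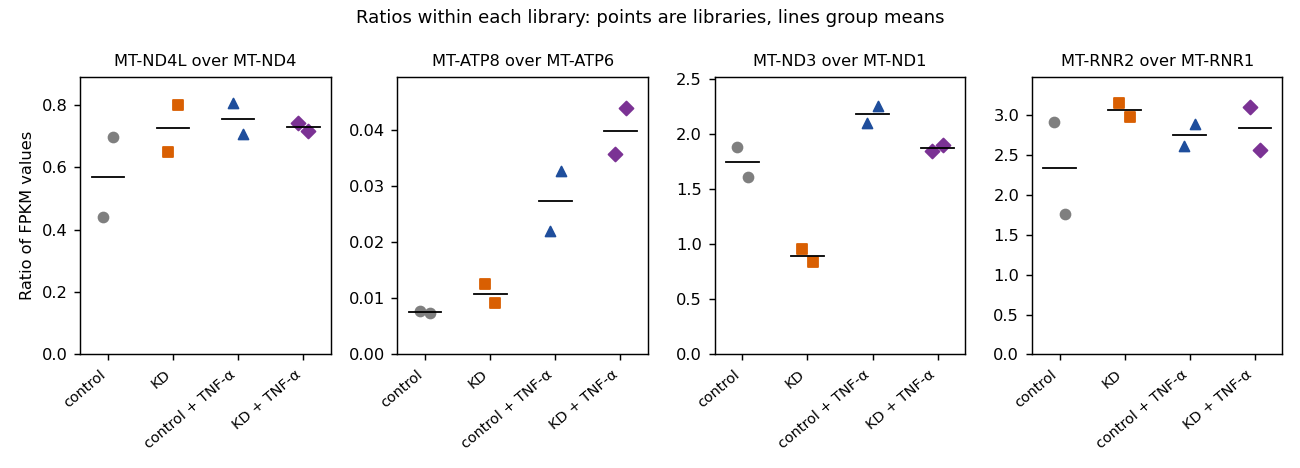
Ratios of FPKM values within each library for 4 pairs of genes, with points for libraries and lines for group means. The ratio of MT-ATP8 to MT-ATP6 is 0.0125 or below without TNF-α and 0.0221 or above with it, and that of MT-ND3 to MT-ND1 is below 1 in the unstimulated KD libraries only, at 0.838 and 0.954.

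Nuclear genes that transcribe, process and maintain the mitochondrial genome were read beside the members. In unstimulated KD cells 25 of 55 genes on these lists were called higher and 18 lower, where 29.8% of all genes were called higher and 30.2% lower. With GC content and length corrected for, 12 of the 55 were higher and 17 lower, where 3969 of 16520 genes were higher and 4664 lower. TFAM, which packages mitochondrial DNA and activates its transcription, was at 9.76 and 10.9 FPKM in control cells and 21.8 and 22.4 FPKM in KD cells, a difference of 1.03 (SE 0.09, adjusted p = 0.000155). POLRMT, the mitochondrial RNA polymerase, was at 33.0 and 30.5 FPKM against 17.4 and 17.1 FPKM, a difference of -0.84 (SE 0.08, adjusted p = 0.0002). LRPPRC, which stabilises mitochondrial mRNAs, was at 8.75 and 10.8 FPKM against 27.2 and 29.7 FPKM, a difference of 1.46 (SE 0.11, adjusted p = 0.000124). These regulators thus moved in both directions, and so did the partners LRPPRC and SLIRP. SLIRP was at 24.2 and 16.1 FPKM against 12.6 and 13.2 FPKM, a difference of -0.58 (SE 0.16, adjusted p = 0.0145). After the GC content and length correction these differences were 0.41 for TFAM, -0.29 for POLRMT, 0.92 for LRPPRC and -1.01 for SLIRP, all still called. The largest changes on the lists were those of MRPL12, a mitochondrial ribosomal protein (-1.73), RRM2B, a ribonucleotide reductase subunit (1.68), and DNA2, a nuclease and helicase (1.48), which were -1.10, 1.01 and 0.87 with that correction.

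After TNF-α none of these 55 genes was called between KD and control cells by limma, 2 had an unadjusted p under 0.05, and their median difference was 0.03. TFAM was at 11.8 and 10.7 FPKM against 11.1 and 11.5 FPKM, and LRPPRC at 11.7 and 10.8 FPKM against 10.5 and 10.4 FPKM, so the groups lay together. POLRMT and SLIRP had differences of 0.07 and 0.08 that were not called. In control cells TNF-α raised ABAT, a mitochondrial transaminase, from 1.99 and 2.52 FPKM to 8.30 and 7.94 FPKM (1.49) and TWNK, the mitochondrial DNA helicase, from 11.7 and 11.7 FPKM to 15.6 and 16.4 FPKM (0.42, adjusted p = 0.0491), and no other gene on these lists was called. In KD cells TNF-α raised MRPL12 by 1.71 and ABAT by 1.43, and DNA2 fell by 1.43 on the log2 scale. Under the GC content and length correction MRPL12 and DNA2 were at 1.07 and -0.82.

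The nuclear subunits of the complexes that hold mitochondrial products moved against the mitochondrial subunits in unstimulated KD cells. Of 74 nuclear subunits of complexes I, III, IV and V, 2 were called higher and 62 lower, with a median difference of -0.80, while 10 of the 13 mitochondrial subunits were called higher with a median of 0.86, against 29.8% of all genes called higher and 30.2% lower. The counts called lower were 30 of 36 for complex I, 7 of 9 for complex III, 10 of 11 for complex IV and 15 of 18 for complex V. Complex II, which holds no mitochondrial product, had 3 of 4 called lower, among them SDHA (-0.83) and SDHB (-0.66). The drop was thus not limited to complexes with mitochondrial subunits. Scaled to the total of all reads 51 of the 74 were called lower and 6 higher, where 3456 of 16528 genes were called lower and 6517 higher. With GC content and length corrected for, 64 were called lower and 1 higher, where 4664 of 16520 genes were called lower and 3969 higher.

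The steepest drops by complex were those of NDUFB7 and NDUFB11 in complex I (-1.55 and -1.39), CYC1 and UQCRC1 in complex III (-1.40 and -1.21), COX5B and COX8A in complex IV (-1.48 and -1.37) and ATP5ME and ATP5F1D in complex V (-1.35 and -1.32). Under the GC content and length correction these 8 were still called lower, with differences from -1.14 for COX5B to -0.65 for UQCRC1. CYC1, the cytochrome of complex III, was at 422 and 319 FPKM in control cells and 155 and 123 FPKM in KD cells. COX5B was at 177 and 118 FPKM against 61.2 and 43.1 FPKM. In these genes as well the KD libraries lay clear below the control libraries, where MT-CYB and the MT-CO genes lay above. The subunits called higher were NDUFA5 (0.44) and NDUFV2 (0.30), the latter at 0.631 FPKM or below in every library, and with GC content and length corrected for NDUFA5 was called lower at -0.41 and NDUFV2 was not called. After TNF-α none of the 74 was called between KD and control cells by limma, none had an unadjusted p under 0.05, and the median difference was -0.03.

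In control cells none of the 74 nuclear subunits was called after TNF-α by limma, with 4 at an unadjusted p under 0.05 and a median difference of -0.12, while the mitochondrial subunits had a median of -0.73. In KD cells 52 were called higher and 3 lower after TNF-α, with a median of 0.64, against 31.1% of all genes called higher and 31.4% lower. NDUFB7 and NDUFS6 in complex I each rose by 1.47, CYC1 and UQCRC1 in complex III by 1.37 and 1.16, COX5B and COX6B1 in complex IV by 1.36 and 1.10, and ATP5F1D and ATP5MC1 in complex V by 1.37 and 1.03. NDUFA5, NDUFV2 and ATP5PB were those called lower, at -0.43, -0.31 and -0.29, and with GC content and length corrected for NDUFA5 was called higher at 0.38 and the others were not called. The 8 subunits named as rising stayed called with that correction, at 0.57 to 1.09. SDHA and SDHB of complex II each rose by 0.55. Scaled to the total of all reads, 35 of the 74 were called higher and 8 lower, where 3309 of 16528 genes were called higher and 7239 lower.

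**Figure D5:**
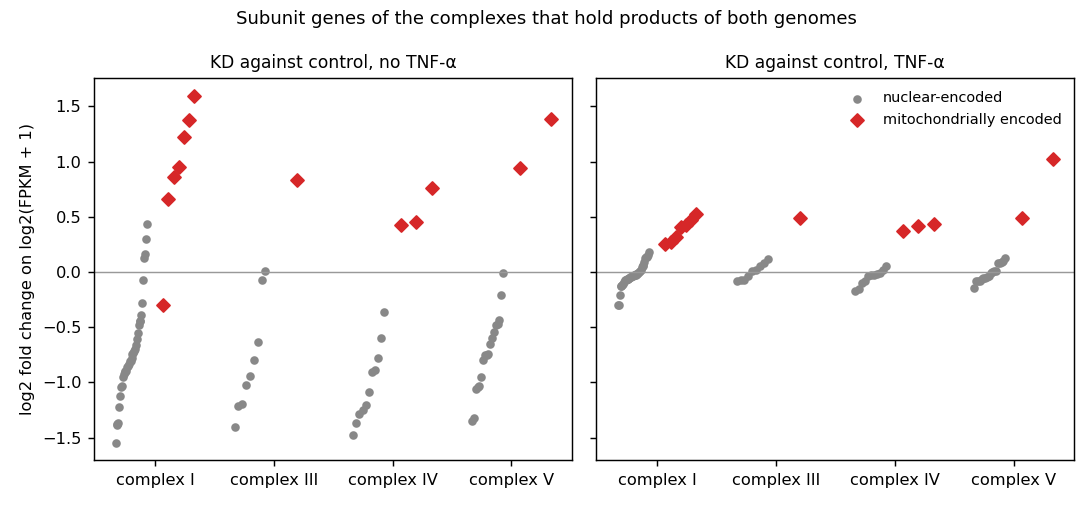
Log2 difference between KD and control cells for subunits of complexes I, III, IV and V, with a grey point for each nuclear-encoded and a red diamond for each mitochondrially encoded subunit, without TNF-α on the left and with it on the right. On the left 62 of 74 nuclear subunits were called lower and 10 of 13 mitochondrial subunits higher, and on the right the nuclear points lie near 0 while the diamonds lie between 0.25 and 1.02 with no call.

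Nuclear copies of mitochondrial genes carry nearly the same sequence, so the assignment of reads between them and the members is uncertain. The 20 copies examined held 0.535% to 0.726% as many reads as the members in each library. Only MTND2P28, MTATP6P1, MTCO1P12 and MTRNR2L4 passed the filter on low reads. MTND2P28 was at 53.7 and 68.8 FPKM in unstimulated control cells and 135 and 157 FPKM in unstimulated KD cells, a difference of 1.25 (SE 0.17, adjusted p = 0.000535), and MTATP6P1 was at 64.2 and 53.3 FPKM against 105 and 120.0 FPKM, a difference of 0.93 (SE 0.12, adjusted p = 0.000423). The differences of MTCO1P12 and MTRNR2L4 were 0.71 and 0.49, and all 4 were called, though MTRNR2L4 was not with GC content and length corrected for (0.20). They followed MT-ND2, MT-ATP6 and MT-CO1 in direction, and whether their reads came from the nuclear or the mitochondrial genome was not tested.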

How the data were processed

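Total RNA was extracted, and 8 libraries, 2 per group, were sequenced. The paper names Illumina kits and does not say whether poly(A) selection or rRNA depletion was used. The authors deposited FPKM values for 58735 genes, scaled by size factors over all 8 libraries. The submitters' processing notes name CASAVA 1.8, fastp, HISAT2 2.0.5, featureCounts 1.5.0-p3 and DESeq2 1.20.0 and the build GRCh38. Strand of counting is not given in the sources used here. Whole reads were recovered for 100% of values (tolerance 0.001), between 15601098 and 18677023 per library, and all positions match GENCODE release 29. The samples were grouped by the labels.

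Values were tested as log2(FPKM + 1) with limma 3.58.1 (R 4.3.3), with a mean per group over 8 libraries (4 residual degrees of freedom) and a trend on mean expression. A gene was kept with 10 or more reads, scaled to median depth, in 2 libraries and 15 in total, which left 16528 genes and 33 of 37 members. Adjustment followed Benjamini and Hochberg, with a threshold of 0.05. The fold scale understates changes near or below 1 FPKM. Scripts were tested on simulated data. Other steps ran in Python 3.11.15 (pandas 2.3.3, matplotlib 3.10.9).

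The members, gene lists and tests were chosen with earlier results of these data known. Named were all 13 coding and 2 rRNA genes, the 4 tRNAs with most reads and any called tRNA, TFAM, POLRMT, LRPPRC and SLIRP, up to 3 called genes per comparison of the transcription, processing and maintenance lists by size of change, up to 2 called subunits per complex and direction, and every nuclear copy past the filter. Recovered reads were tested with voom as an alternative, and negative binomial models were not fitted. Alternatives were a pseudocount of 0.1, other filters and scalings, only the 4 libraries compared, a replicate block, leaving out each library, voom on recovered reads, a spline correction for GC content and length (5 degrees of freedom), and, after seeing the data, scaling to mitochondrial coding reads.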

Additional observations from a re-analysis of the deposited data

Results flagged for a closer look

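The KD difference with TNF-α was set against that without TNF-α by the interaction term of limma, and it was past an adjusted p of 0.05 for 7 mitochondrial genome genes. The value, KD difference with TNF-α minus that without, was -0.90 for MT-ND4, -0.80 for MT-RNR2, -1.33 for MT-ND4L, -0.85 for MT-ND5, -0.87 for MT-TL1 and -1.56 for MT-TM, and 0.73 for MT-TC. Of these, MT-ND5, MT-TL1 and MT-TM were called in all 8 fits that left out 1 library, MT-ND4 in 5, MT-ND4L and MT-RNR2 in 4 each and MT-TC in 2. MT-ND4 lost its call without TNF-α-treated control replicate 1 or either TNF-α-treated KD library, MT-ND4L and MT-RNR2 also without unstimulated KD replicate 2, and MT-TC without any library other than the unstimulated controls, with values between 0.62 and 0.84. The nuclear regulators differed between the conditions as well, with values of -1.02 for TFAM, 0.92 for POLRMT, -1.55 for LRPPRC and 0.66 for SLIRP. With GC content and length corrected for they were -0.40, 0.34, -1.02 and 1.11. Over all genes 22.3% had a negative and 23.8% a positive interaction past the threshold.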

How the results depend on the processing

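Counts below are of the 33 mitochondrial genome genes tested, called higher and lower, unless all genes are named. KD against control without TNF-α gave 20 and 1. Scaling to all reads or to reads outside the mitochondrial genes gave 25 and 0, no filter on low reads 15 and 0, a stricter filter on mean reads 16 and 2, the 4 libraries alone 18 and 0, voom 22 and 3, and GC and length correction 16 and 5, or 17 and 5 with the replicate block. Over all 16528 genes the main fit gave 4932 and 4996, and these 2 scalings gave 6517 and 3456, and 6727 and 3282. GC correction gave 3969 and 4664 of 16520 genes, no filter 5170 and 4441 of 32613, and the stricter filter 4384 and 4998 of 14117. Voom gave 4963 and 4982. With TNF-α, 0 were called in either direction, except 1 higher with voom and 0 to 1 higher when 1 library was left out. TNF-α in control cells gave 1 and 7. No filter gave 0 and 1, the filter on mean reads 1 and 11, both scalings 1 and 14, upper-quartile factors 0 and 8, the 4 libraries alone 0 and 1, the replicate block 0 and 6, voom 0 and 12, and GC correction 1 and 11, or 0 and 12 with the block. Over all genes the main fit gave 512 and 189, and the scalings 379 and 250, and 361 and 261. Voom gave 615 and 187 over all genes and GC correction 615 and 297. TNF-α in KD cells gave 2 and 23. No filter gave 0 and 16, both scalings 0 and 26, upper-quartile factors 0 and 24, and GC correction 6 and 16, or 6 and 18 with the block. Over all genes the main fit gave 5141 and 5187, and the scalings 3309 and 7239, and 3094 and 7489. Upper-quartile factors gave 4616 and 5711 over all genes and GC correction 4802 and 4597. The interaction gave 1 and 6. No filter gave 0 and 4, both scalings 0 and 12, voom 2 and 9, and GC correction 5 and 5, or 6 and 5 with the block.

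The median of the 13 coding genes, scaled to all reads, to reads outside the mitochondrial genes, and with GC correction (the same with the block), was 1.14, 1.17 and 0.74 for KD without TNF-α, -0.81, -0.82 and -0.66 for TNF-α in control cells, -1.55, -1.59 and -0.98 for TNF-α in KD cells and -0.66, -0.69 and -0.28 for the interaction. Upper-quartile factors gave -0.80 and -1.27 for TNF-α in control and KD cells. With reads of protein-coding genes as denominator the share was 2.07% in control and 1.57% in TNF-α-treated KD cells.

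Leaving out 1 library gave, in the order of comparisons above, 17 to 22, 0 to 1, 0 to 1, 0 to 2 and 0 to 2 higher, 0 to 3, 0, 1 to 14, 16 to 25 and 3 to 9 lower, and medians of 0.81 to 0.98, 0.36 to 0.49, -0.80 to -0.65, -1.19 to -1.10 and -0.47 to -0.32. Shares ranged from 2.02% to 2.03%, 4.10% to 4.42%, 1.11% to 1.25% and 1.55% to 1.55%. GC and length correction, with or without the replicate block, reversed MT-TP (-0.97) and MT-TY (-0.56) for KD without TNF-α, MT-TP (0.92) and MT-TR (0.52) for TNF-α in KD cells and MT-TL1 (0.023) for the interaction, and it ended the calls of MT-TL1, MT-TH, MT-TG, MT-TR, MT-TV and MT-RNR1 for KD without TNF-α; the cause was not tested. Of 21, 8, 25 and 7 genes called (KD without TNF-α, TNF-α in control cells, TNF-α in KD cells, interaction), 10, 1, 12 and 1 kept the call in every setting. Same-numbered libraries correlated between -0.32 and 0.49 in their deviations. The value of 0.49 was that of unstimulated control and KD libraries, and whether same-numbered libraries shared a batch was not tested. Low read counts limit 14 tRNA genes with under 200 reads.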
